A study of Canis lupus familiaris with 186 samples.

Results

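SAA1, S100A8, S100A9, S100A12, CSF3R and MPO, genes of neutrophils and of the acute-phase response, were examined in mRNA sequencing of primary canine osteosarcoma (OS). They were taken by gene symbol from the deposited table, where each was present as 1 row, so that 6 of 37952 genes are described here, and all 6 were among the 13422 genes kept by a filter on low counts. The tumors came from 186 privately owned dogs with appendicular OS and no macroscopic metastasis, 93 enrolled in the trial COTC021 and 93 in COTC022. All samples are primary tumors taken before treatment, 1 per dog, and the labels list no age, arm or genotype. After the tissue had been taken, the study randomized the dogs to carboplatin alone (93 dogs) or carboplatin with rapamycin (93 dogs). How these arms relate to the trials is not given in the sources used here, so that trial and arm cannot be told apart. The study's code took the trials as its batch labels. Nothing was manipulated in these tumors, so that every contrast below is between cohorts or across dogs.

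S100A8 and S100A9 are small calcium-binding proteins that pair as calprotectin, the most abundant cytosolic protein of neutrophils, and S100A12 is a related ligand of inflammatory receptors. CSF3R is the receptor for granulocyte colony-stimulating factor, which drives the formation and survival of neutrophils. MPO, myeloperoxidase, is an enzyme of the primary granules whose mRNA is made mainly by granulocyte precursors in the marrow, while mature neutrophils carry the protein. SAA1, serum amyloid A, is an apolipoprotein that the liver releases in the acute-phase response and that other cells can make under inflammatory cytokines.

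On the canine assembly UU_Cfam_GSD_1.0, the build to which the authors mapped their reads, the S100 genes lie in a row, S100A8 at chr7:43530107-43531042, S100A12 at chr7:43543469-43544911 and S100A9 at chr7:43556431-43559507. MPO lies at chr9:32897366-32907792, next to LPO, the gene of the related lactoperoxidase. CSF3R lies at chr15:5890652-5904148 and is overlapped by the long non-coding RNA LOC111098957, which had at most 4 counts in any library. SAA1 lies at chr21:41343517-41347865, in a run of protein-coding genes that includes LOC119877366 at chr21:41362769-41367117, LOC102155886 at chr21:41291618-41296015 and LOC111089962 at chr21:41381791-41386360.

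Library totals lay between 6587631 and 27420857 counts. Columns of 50 libraries have a doubled low line in their name (called low-line libraries here), with 18 dogs from COTC021 and 32 from COTC022, and their median total was 19440400 counts against 9851680 in the other 136. The names are not explained in the sources used here. Of the 13422 genes, 573 (4.27%) differed with the library name at an adjusted p under 0.05 (limma-voom with trial as a covariate), and 0 of the 6 genes did, while 2471 genes had an unadjusted p under 0.05. The log2 difference of low-line minus other libraries was -0.74 ± 0.38 (SE) for S100A12 and -0.63 ± 0.34 for S100A9. It was -0.49 ± 0.32 for CSF3R, -0.48 ± 0.56 for SAA1, -0.17 ± 0.27 for S100A8 and 0.38 ± 0.21 for MPO. A shift with the library name is thus not excluded for these genes. The 5 osteoblast markers BGLAP, SP7, IBSP, ALPL and RUNX2 passed the low-count filter, with a summed level from 53.1 to 16722 CPM (counts per 1000000 of the library total) and a median of 1933 CPM.

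The 6 genes were low in most tumors and high in a few. S100A8 ranged from 0.328 to 194 CPM, with a median of 2.64 CPM. The 10 dogs with the highest S100A8 held 46.2% of its CPM summed over all dogs. The highest tumor was therefore 73.4 times the median tumor, and 20 dogs had under 10 counts. S100A9 ranged from 0 to 345 CPM, with a median of 4.16 CPM, and its 10 highest dogs held 49.1% of the sum. S100A12 ranged from 0 to 439 CPM, with a median of 2.13 CPM, and its 10 highest dogs held 53.5%. It was the most uneven of the 6 genes, since a single dog held 22.8% of its summed CPM, and 41 dogs had under 10 counts. CSF3R ranged from 0 to 377 CPM, with a median of 3.54 CPM, and its 10 highest dogs held 53.2%.

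MPO was the most even gene. Its level ran from 0 to 22.2 CPM with a median of 2.13 CPM, its 10 highest dogs held 26.6% of the sum, and 37 dogs had under 10 counts. SAA1 ran from 0 to 209 CPM with a median of 4.65 CPM, and its 10 highest dogs held 45.0%. A count of 0 was found for SAA1 in 25 dogs, 14 in COTC021 and 11 in COTC022, against 0 dogs for S100A8, 1 each for S100A9 and CSF3R, 3 for S100A12 and 2 for MPO. In these 25 libraries a count of 0 allows a level of up to between 0.139 and 0.387 CPM (3 counts per library, covering counting error only). On the log2(CPM + 1) scale the skewness remained positive for all 6 genes, from 0.52 for SAA1 and 0.69 for MPO to 1.41 for S100A8, so that a log scale did not even out the few high tumors. In bulk tumor RNA, fewer cells of a type and less RNA per cell cannot be told apart.

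**Figure D1:**
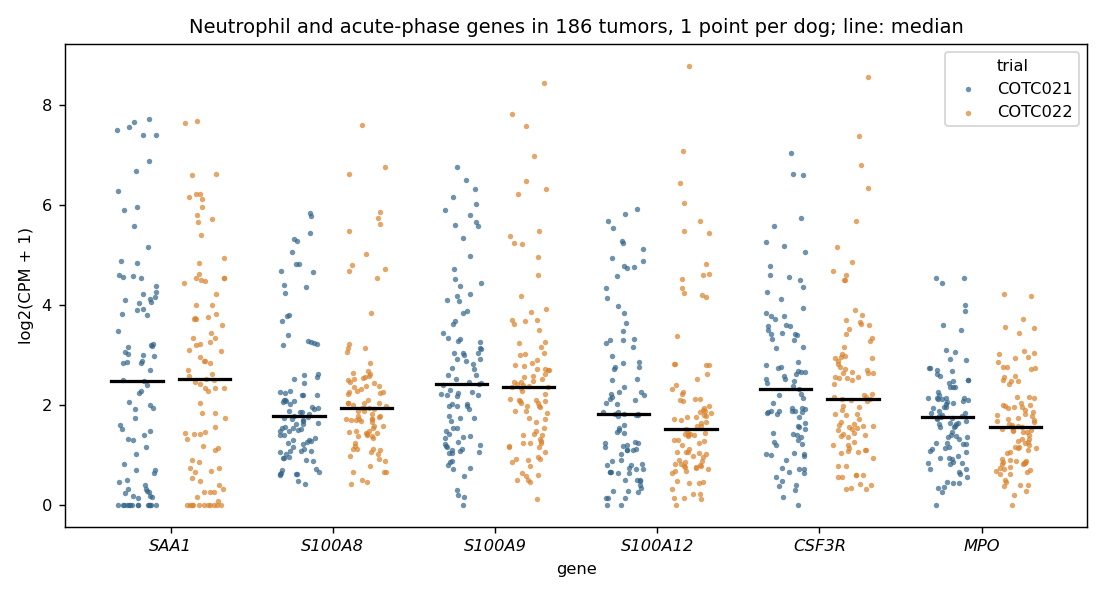
Level of each gene as log2(CPM + 1), with 1 point per dog, 93 dogs in each trial and a line at the median of each trial. Medians of the trials lie close together for every gene, a few tumors stand far above the rest for the S100 genes and CSF3R, and SAA1 has a row of dogs at 0.

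The same tumor stood highest for 4 of the genes. Dog 32 of COTC022 had 194 CPM of S100A8, 345 CPM of S100A9, 439 CPM of S100A12 and 377 CPM of CSF3R, each the highest of 186. Its SAA1 was 61.5 CPM, the 18th highest, and its MPO was 1.49 CPM, the 119th. Dog 17 of COTC022 was next for S100A8, S100A12 and CSF3R, with 107, 135 and 165 CPM, and its SAA1 of 1.67 CPM and MPO of 0.139 CPM were below their medians. The highest SAA1 was in dog 14 of COTC021 with 209 CPM, in which S100A8 was 1.35 CPM, under its median. Among the 10 highest dogs of each gene, S100A8 and S100A9 shared 9, S100A12 shared 8 with each of them, and CSF3R shared 3 or 4 with each S100 gene. SAA1 shared 1 to 3 with the other genes. MPO shared 3 with each S100 gene, 2 with SAA1 and 0 with CSF3R. Of the 186 dogs, 28 were among the 46 highest for all of S100A8, S100A9, S100A12 and CSF3R. Of these 28, 9 were also among the 46 highest for SAA1 and 6 for MPO. Any gene has 46 of the 186 dogs in that group, a share near which both 9 of 28 and 6 of 28 lie. These counts were not tested.

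Levels did not differ detectably between the trials. S100A8 had a lowest, median and highest level of 0.328, 2.41 and 56.6 CPM in COTC021 and 0.339, 2.83 and 194 CPM in COTC022. For SAA1 the medians were 4.54 and 4.73 CPM, and for MPO 2.38 and 1.93 CPM, in COTC021 and COTC022. The ranges of the trials overlapped for each gene. The limma-voom contrast called 0 of the 6 genes at an adjusted p under 0.05, where 0.0149% of all genes were called (2 of 13422), and 1332 genes had an unadjusted p under 0.05. edgeR's quasi-likelihood test called 129 genes and DESeq2 91, again with 0 of the 6. The log2 difference of COTC022 minus COTC021 was 0.22 ± 0.51 (SE) for SAA1 and 0.13 ± 0.25 (SE) for S100A8, and the other 4 lay between -0.20 and -0.08. Each of these limma-voom values was smaller than its SE. By edgeR's quasi-likelihood test the difference was 0.65 for S100A8, 0.75 for S100A12 and 0.60 for S100A9 (adjusted p = 0.294, 0.326 and 0.412). It was 0.38 for CSF3R, -0.19 for SAA1 and -0.18 for MPO by the same test. The signs for SAA1, S100A8, S100A9, S100A12 and CSF3R changed with the test or within groups of libraries, so no direction can be given for them.

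Values of SAA1 need a caution, because its counts could not be told apart from those of a neighbor in nearly all dogs. The deposited expected counts of SAA1 and LOC119877366 were equal, with no tolerance, in 185 of 186 dogs, 160 of them above 0. SAA1 was not a whole number in 159 dogs, and RSEM gives such values where it divides reads between genes, whereas the other 5 genes were whole numbers in every dog. The exception was dog 36 of COTC021, with 56.4 counts for SAA1 and 6955 for LOC119877366. Whether the transcripts of the pair share their sequence was not checked here. The sum of the pair ranged from 0 to 860 CPM with a median of 9.30 CPM.

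The further neighbors followed SAA1 less closely. Spearman's rho with SAA1 was 0.65 for LOC111089962 and 0.64 for LOC102155886 over 186 dogs, and -0.03 for SAAL1, a gene beside the run. In the 25 dogs with 0 counts of SAA1, LOC102155886 ranged from 0.327 to 505 CPM with a median of 14.0 CPM, and 24 of the dogs had 10 counts or more. LOC111089962 ranged from 0.295 to 218 CPM with a median of 8.27 CPM in the same dogs. In the 161 dogs with SAA1 counts, their medians were 20.7 and 15.4 CPM. The neighbors LOC403585 and LOC751814, which lie closer to SAA1, were low in the 25 dogs, with at most 0.388 and 1.13 CPM and with 10 counts in 0 and 2 dogs, and LOC119877366 was 0 in all 25. In the 161 dogs they had 10 counts or more in 34 and 41. A listed 0 of SAA1 thus often stood beside many counts of LOC102155886 and LOC111089962 and few of the closer neighbors, and the cause was not tested.

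**Figure D2:**
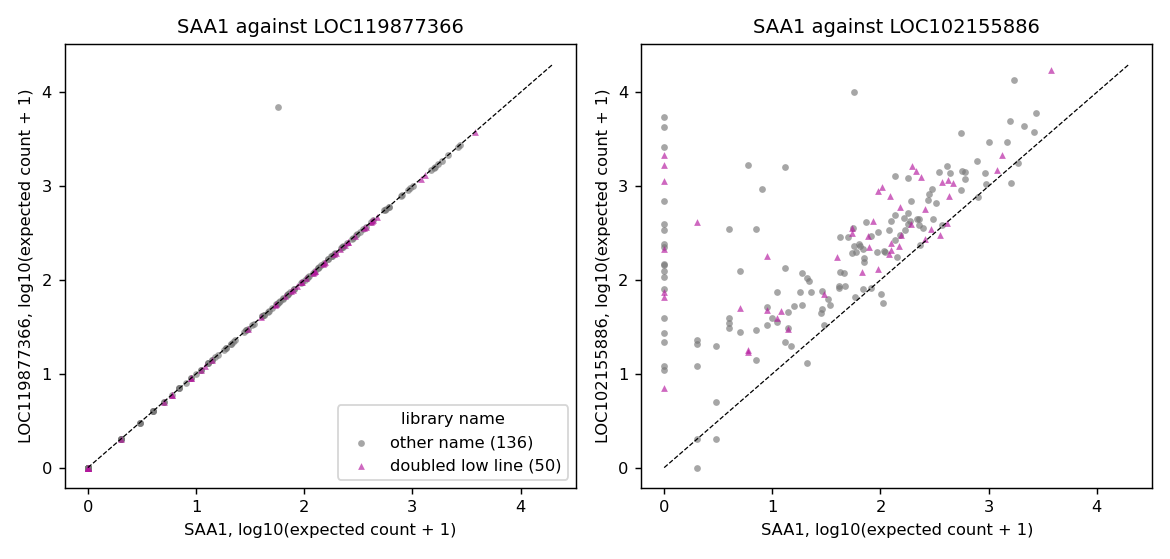
Expected counts of SAA1 (x axis) against LOC119877366 (left) and LOC102155886 (right), as log10(count + 1), with 1 point per dog, the mark giving the kind of library name and the dashed line equal counts. On the left all but 1 dog lie on the line. On the right most dogs lie above it, and the 25 dogs with 0 counts of SAA1 spread over a wide range.

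S100A8, S100A9, S100A12 and CSF3R varied together across dogs. Spearman's rho of log2(TMM CPM + 1) over 186 dogs was 0.85 for S100A8 with S100A9, 0.87 for S100A9 with S100A12 and 0.79 for S100A8 with S100A12. For CSF3R it was 0.84 with S100A9, 0.75 with S100A12 and 0.72 with S100A8. Pearson's r of these 6 pairs ranged from 0.73 for S100A8 with CSF3R to 0.94 for S100A8 with S100A9. Permutation tests gave p = 1e-05 for r and for rho in all 6, the smallest that 100000 resamples can give, and adjusted p = 2.5e-05 over the 15 pairs. Without the 2 dogs farthest from the median of the first gene, r was between 0.69 and 0.93. These 6 pairs passed the test within each trial, with rho from 0.68 to 0.88, within the low-line libraries, from 0.84 to 0.94, and within the other libraries, from 0.67 to 0.83.

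Of the ratios within a tumor given here, that of the calprotectin partners varied least, though each ratio was taken in its own set of dogs. In the 161 dogs with 10 counts or more of both, the log2 ratio of S100A9 to S100A8 counts had a median of 0.69 and an SD of 0.79. It ranged from -2.32 to 2.73, and S100A9 had the higher count in 129. The SD of the log2 ratio was 0.98 for S100A9 to S100A12 in 141 dogs and 1.19 for CSF3R to S100A9 in 159 dogs. The SD was 2.02 for MPO to S100A9 in 137 dogs and 2.65 for SAA1 to S100A9 in 121 dogs. Counts were not divided by gene length, so that the SDs compare tumors, not levels of the genes.

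SAA1 and MPO were set apart from this group. For SAA1, rho was 0.19 with S100A9 (r = 0.20, adjusted p = 0.0224 for rho and 0.0116 for r, permutation tests), 0.16 with S100A12 (r = 0.21, adjusted p = 0.0510 for rho and 0.00752 for r), 0.11 with CSF3R and 0.08 with S100A8. Within the low-line libraries rho of SAA1 and S100A9 was 0.00 against 0.25 in the other libraries (adjusted p = 0.995 and 0.00776, permutation tests), a difference that was not tested. Summing SAA1 with LOC119877366 gave 0.20 with S100A9. MPO had a rho between -0.04 and 0.10 with each of the other genes, none with an adjusted p under 0.05.

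For MPO the ranks and the values did not give the same answer. Pearson's r was 0.23 with S100A8 (adjusted p = 0.00474, permutation test), 0.16 with S100A9 (adjusted p = 0.0409) and 0.16 with S100A12 (adjusted p = 0.0460). In COTC021 r of MPO with S100A8 was 0.40 and in COTC022 it was 0.08 (adjusted p = 0.000171 and 0.523). With a pseudocount of 0.1, which spreads the low values, the adjusted p of MPO with S100A8 was 0.0586.

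**Figure D3:**
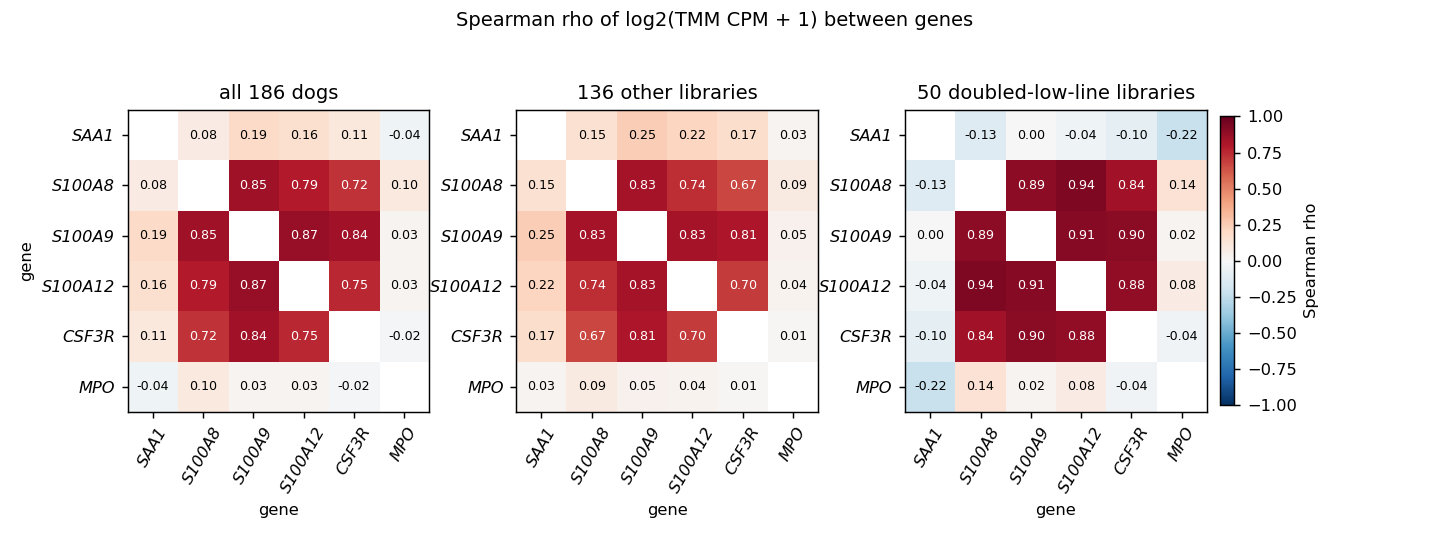
Spearman's rho of log2(TMM CPM + 1) for each pair of genes in all 186 dogs, in the 136 other libraries and in the 50 libraries with a doubled low line, with color from -1 (blue) to 1 (red). The block of S100A8, S100A9, S100A12 and CSF3R is dark in each panel, from 0.67 to 0.94, and the rows of SAA1 and MPO are pale.

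Most of the tumors highest in MPO also stood highest in other granule transcripts. Chosen after the values were seen, the 10 dogs with the highest MPO, from 10.7 to 22.2 CPM, are described here by the transcripts of ELANE and CTSG, the neutrophil elastase and cathepsin G that share the primary granules with MPO. ELANE had a median of 0 CPM over the 186 dogs and a highest level of 9.99 CPM. In 8 of the 10 dogs ELANE was between 2.22 and 9.99 CPM, and these 8 held the 1st to the 8th place of all dogs for CTSG, from 6.51 to 24.6 CPM, where the median was 0.206 CPM. In the same 8 dogs S100A8 was between 24.4 and 56.6 CPM, from the 5th to the 21st place. CSF3R was between 2.67 and 11.7 CPM in them, from the 35th to the 109th place, so that each of the 8 stood higher in rank for S100A8 than for CSF3R. LTF and CAMP, proteins of the secondary granules, reached 25.8 to 89.7 CPM and 12.0 to 45.8 CPM, against medians of 0.892 and 0 CPM.

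The remaining 2 of the 10 dogs differed. Dog 42 of COTC021 had 22.2 CPM of MPO with 0 CPM of ELANE, 0.283 CPM of CTSG and 3.30 CPM of S100A8. Dog 36 of COTC022 had 10.7 CPM of MPO with 0.117 CPM of ELANE, 1.87 CPM of CTSG and 4.78 CPM of S100A8. The red cell transcript AHSP was between 0.524 and 10.6 CPM in the 8 dogs and 0 CPM in these 2, with a median of 0.111 CPM over all dogs. ALAS2, another red cell transcript, did not separate them. It was between 0.309 and 21.4 CPM in the 8 dogs, 1.04 CPM in dog 42 and 0.233 CPM in dog 36, with a median of 0.207 CPM over all dogs. The part of marrow cells in these values was not tested. Over all 186 dogs rho of MPO was 0.26 with ELANE and 0.27 with CTSG, given as a description. For other granule transcripts it was 0.24 with PGLYRP1, 0.14 with LTF, 0.11 with CAMP, 0.09 with MMP8 and 0.03 with LCN2. ELANE and CTSG had a higher rho with S100A8, 0.42 and 0.37, than with MPO.

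The genes nearest to each member in rank were partly those of neutrophils. For S100A8, S100A9 and S100A12, each other and CSF3R took the first 3 places, followed by HK3, a hexokinase of myeloid cells, with rho of 0.62, 0.71 and 0.69. CXCL8, the chemokine that draws neutrophils, had a rho of 0.60 with S100A8, and FFAR2, a receptor for short-chain fatty acids on neutrophils, 0.71 with S100A9 and 0.65 with S100A12. For CSF3R, S100A9 was followed by AQP9, a glycerol and water channel of leukocytes, with 0.78, CD4 with 0.77, S100A12 with 0.75 and CXCL8 with 0.75. CD4 marks helper T cells, and in dogs it is also found on neutrophils. The median rho over all genes tested was near 0 for each member, between -0.01 and 0.00.

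Among genes with a symbol, those nearest to SAA1 were TNFSF13B, CIITA, POU2F2, UPP1 and CASP4. TNFSF13B, a survival factor of B cells, had a rho of 0.51, CIITA, the regulator of MHC class II genes, 0.47, and POU2F2, a transcription factor of B cells, 0.47. UPP1, a uridine phosphorylase, had 0.47, and CASP4, an inflammatory caspase, 0.45. Within the low-line libraries these 5 fell to between 0.20 and 0.28, and within the others they were between 0.50 and 0.59. For MPO the 5 nearest were NLE1 with 0.45, WNK2 with 0.43, and DBF4B, DLX1 and RIMKLA with 0.42 each, none of which is known as a granulocyte gene.

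Scores of cell type markers, the mean z-score of a list with the 6 genes left out, were compared with each gene over 186 dogs, in 54 pairs of a gene and a list. The neutrophil list of 10 genes, among them the chemokine receptors CXCR1 and CXCR2, TREM1, CD177, PADI4 and LTF, had a rho of 0.85 with S100A9, 0.79 with S100A12, 0.75 with CSF3R and 0.74 with S100A8 (each adjusted p = 3e-05, permutation tests). Its rho was 0.16 with SAA1 (adjusted p = 0.0446) and -0.02 with MPO. The summed level of the list was between 1.81 and 336 CPM, with a median of 24.0 CPM, and CAMP had a median count of 0.

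The same 4 genes also followed other leukocytes, less closely. Spearman's rho with the macrophage list was 0.45 for S100A9, 0.43 for CSF3R, 0.40 for S100A12, 0.28 for S100A8 and 0.31 for SAA1. With the T cell list it was between 0.30 and 0.44 for S100A8, S100A9, S100A12 and CSF3R, and without CD4 between 0.22 and 0.35. SAA1 had a rho of 0.35 with the T cell list, 0.36 without CD4 and 0.36 with the B cell and plasma cell list, above its rho of 0.16 with the neutrophil list, though these differences were not tested. Within the low-line libraries rho of SAA1 was 0.06 with T cells and 0.05 with macrophages, against 0.44 and 0.39 in the other libraries. With the B cell and plasma cell list it was 0.29 there (r = 0.34, adjusted p = 0.0831 for rho and 0.0374 for r, permutation tests), against 0.38 in the other libraries.

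Spearman's rho with the osteoblast list was negative for S100A8, S100A9, S100A12, CSF3R and SAA1, from -0.18 to -0.33, each with an adjusted p under 0.05. The red cell list, of which 3 genes could be scored, among them ALAS2 and AHSP, moved with S100A8, S100A9, S100A12 and CSF3R, with rho of 0.42, 0.37, 0.35 and 0.23, and with MPO, with r of 0.39 and rho of 0.18 (adjusted p = 3.6e-05 and 0.0202). Their summed list ranged from 0 to 68.5 CPM, with a median of 0.844 CPM, and 4 of its 8 genes had a median count of 0. The part of blood or marrow in the results was not tested. The adipocyte list also had a rho of 0.29 to 0.42 with these 4 genes, and the endothelial list had -0.28 with MPO.

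No score could be made for granulocyte precursors of the marrow, megakaryocytes, keratinocytes and hepatocytes, with 1 or 2 usable genes each. The hepatocyte genes, among them the albumin gene ALB, summed to a median of 1.97 CPM and at most 93.1 CPM, and APOA2, TTR, FGB and AHSG had a median count of 0. The range of SAA1 is read beside these low levels, and the part of liver cells in it was not tested.

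**Figure D4:**
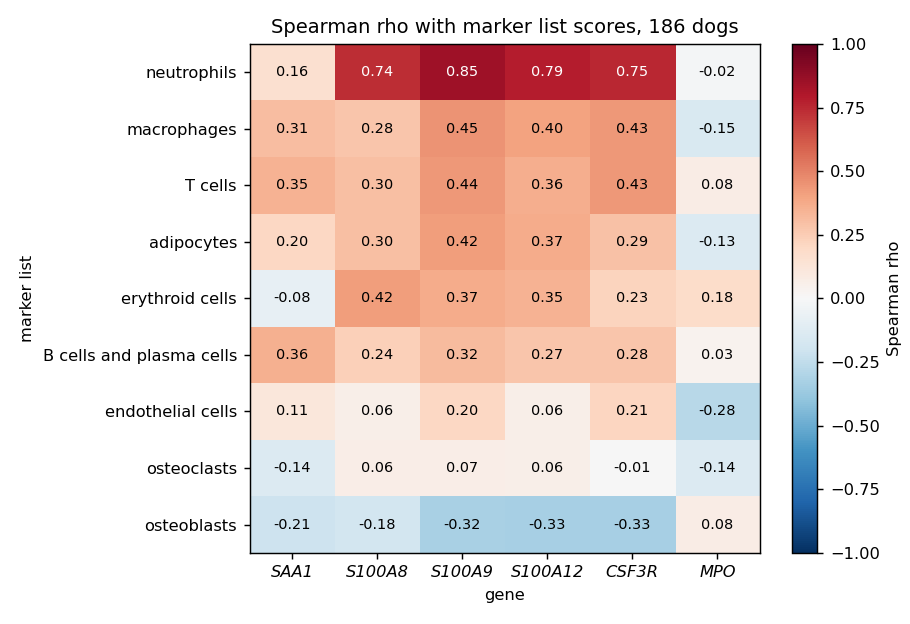
Spearman's rho over 186 dogs of each gene with the score of each marker list, ordered by the rho of S100A9, with color from -1 (blue) to 1 (red). The neutrophil row holds the highest values for S100A8, S100A9, S100A12 and CSF3R, from 0.74 to 0.85, while SAA1 has its highest with B cells and plasma cells and T cells and MPO has no rho above 0.18.

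GS-1, the gene signature by which the study divided its dogs, was used as a number. The score used the 27 of its genes that remained after the study's own filter. They are mainly leukocyte genes, among them C1QB, CD53, IKZF1 and the MHC class II genes DLA-DQA1 and DLA-DQB1, and none is among the 6 described here. The score of a dog, its mean z-score over these genes, ranged from -1.28 to 3.57 with a median of -0.14 and an SD of 0.82. Cluster membership, disease-free interval and overall survival were not analysed here.

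With the score, 5 of the 6 genes rose and MPO did not pass the test, where 48.5% of all genes passed it, 22.3% of them upward and 26.2% downward as shares of the 13422 genes tested. CSF3R rose by 0.91 ± 0.11 (SE) in log2 level per SD of the score (limma-voom, n = 186, adjusted p = 1.56e-13). The slope was 0.80 ± 0.12 for S100A9 (adjusted p = 1.78e-09), 0.77 ± 0.12 for S100A12 (3.86e-08), 0.48 ± 0.11 for S100A8 (5.93e-05) and 0.57 ± 0.21 for SAA1 (0.0167). For MPO it was -0.20 ± 0.11 (adjusted p = 0.120). The median slope of the 6 genes was 0.67 and that of all genes -0.02. edgeR's quasi-likelihood test and DESeq2 also called these 5 genes, with larger slopes of 1.02 for SAA1 in both, 0.83 and 0.84 for S100A8, and 1.15 and 1.17 for S100A12. A larger slope than that of CSF3R by limma-voom was found for 270 genes. Nearly 1 gene in 2 changed with the score in either direction, and 22.3% of all genes rose, the share beside which 5 of 6 is read. The 6 genes were chosen with earlier results of these data known, so that the count is a description.

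The ranks gave the same calls. Spearman's rho with the score was 0.47 for S100A9, 0.44 for CSF3R, 0.40 for S100A12, 0.39 for SAA1 and 0.28 for S100A8, and r was 0.42, 0.47, 0.38, 0.37 and 0.29 (adjusted p at most 0.000156 for rho over the 6 genes, permutation tests). Without the 2 dogs farthest from the median score, r was between 0.32 and 0.47 for these 5. MPO had a rho of -0.12 and an r of -0.12 (adjusted p = 0.0899 and 0.107). Within the trials rho in COTC021 and COTC022 was 0.53 and 0.39 for S100A9, 0.56 and 0.33 for CSF3R, 0.44 and 0.36 for S100A12, and 0.35 and 0.20 for S100A8. The last of these did not pass the test (adjusted p = 0.059). By the slope it was COTC021 in which S100A8 missed the threshold, with 0.33 ± 0.16 (SE, adjusted p = 0.109) against 0.59 ± 0.14 in COTC022 (limma-voom).

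The size of the slope of SAA1 depended on a few dogs and on the libraries used. The 2 dogs with the highest score, dog 64 of COTC022 with 3.57 and dog 12 of COTC021 with 2.73, both had 0 counts of SAA1 and LOC119877366. In dog 64 LOC102155886 was 135 CPM and LOC111089962 31.6 CPM, and in dog 12 they were 14.0 and 187 CPM. Without these 2 dogs the slope of SAA1 was 1.62 (adjusted p = 7.52e-12, limma-voom). Summed with LOC119877366, it was 0.94 ± 0.24 (adjusted p = 0.000476). The neighbors LOC102155886 and LOC111089962 had slopes of 1.28 ± 0.15 and 1.36 ± 0.14. The slope of SAA1 was 1.00 ± 0.30 within COTC021 and 0.17 ± 0.28 within COTC022 (adjusted p = 0.00899 and 0.679), while its rho was 0.38 and 0.39. Within the low-line libraries, which hold dog 64, the slope was 0.13 ± 0.42 and rho 0.09 (adjusted p = 0.863 and 0.650), and within the others 1.19 ± 0.27 and 0.49.

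The difference of the slopes between the trials was tested for all genes and was called for 0 of 13422 (0%) by limma-voom, 374 having an unadjusted p under 0.05, and for 2 by edgeR's quasi-likelihood test, neither of them among the 6. For SAA1 the slope was lower by 0.82 ± 0.42 (SE) in COTC022 (limma-voom adjusted p = 1.00), and for the other 5 genes the difference was between -0.21 and 0.25. Between library names, the slope of SAA1 in the low-line libraries minus that in the others was -1.05 ± 0.49 (adjusted p = 0.653).

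**Figure D5:**
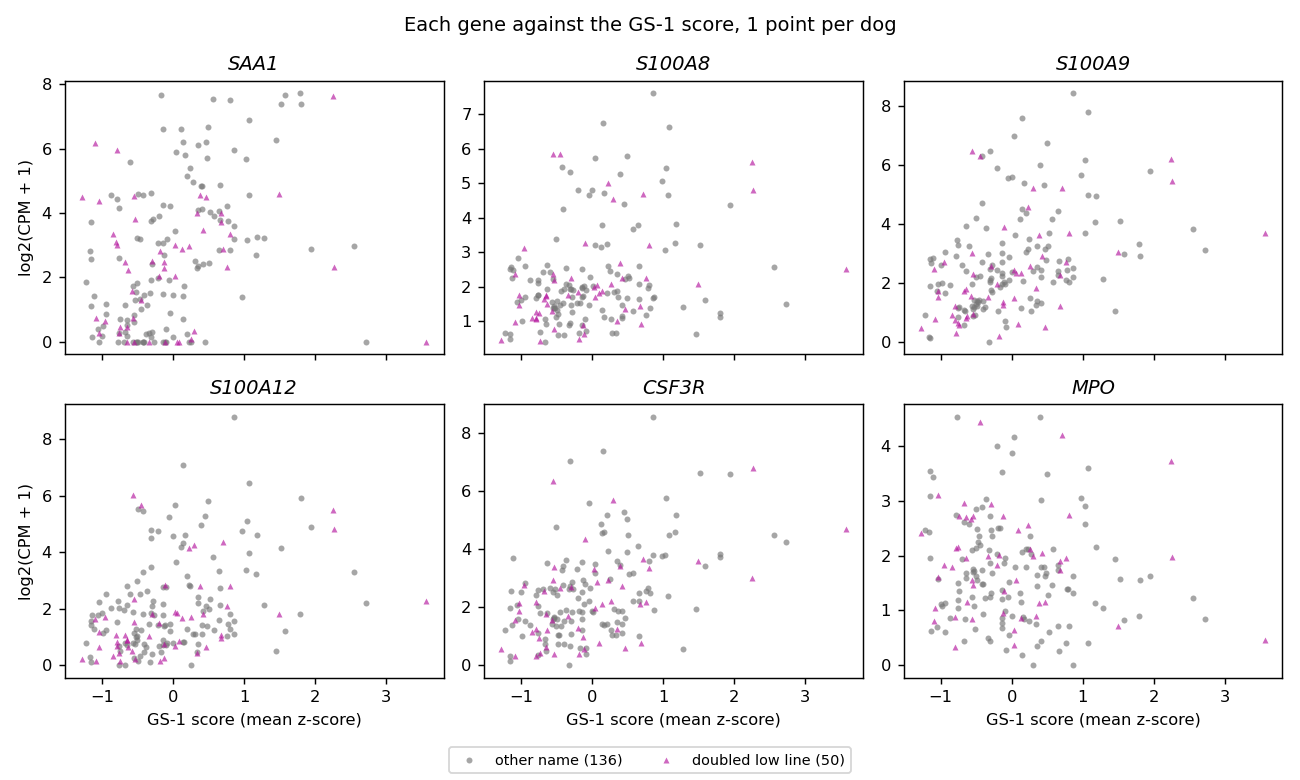
Level of each gene as log2(CPM + 1) against the GS-1 score (mean z-score over 27 genes), with 1 point per dog and the mark giving the kind of library name. S100A9, S100A12 and CSF3R climb with the score over a wide scatter, MPO does not, and the 2 dogs at the right end of the SAA1 panel lie at 0.

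Other neutrophil genes were counted against the score by lists, where 22.3% of all 13422 genes rose and 26.2% fell. Of 23 genes for neutrophil receptors and signalling, 15 passed the low-count filter, 13 of which rose with the score and 0 fell, with a median slope of 0.95. Large slopes were those of CYBB, the catalytic subunit of the phagocyte oxidase, with 1.16 ± 0.04 (SE), FGR, a kinase of myeloid cells, with 1.10 ± 0.04, and MYO1F, a myosin of leukocytes, with 1.06 ± 0.03. CXCR1, CXCR2, FPR2, CD177, PADI4, CSF3 and AGER were below the filter. All 5 tested regulators of the myeloid lineage rose, against 22.3% of all genes, IRF8 with 1.23 ± 0.04, CEBPA with 0.60 ± 0.05, SPI1 with 0.59 ± 0.07 and RUNX1 with 0.26 ± 0.07 the most, although IRF8 is known to favor monocytes over granulocytes.

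Granule genes were mostly too low to test. Of 13 granule genes in the table, 8 were below the filter, among them ELANE, CTSG, LTF, CAMP, MMP8 and LCN2. Of the 5 tested, 3 rose and 0 fell, against 22.3% and 26.2% of all genes. The 3 were CTSS with 1.3 ± 0.04, BPI with 1.15 ± 0.05 and LYZ with 1.05 ± 0.06, and CTSS and LYZ are also made by macrophages. BPI had a median of 113 CPM, against 0.892 CPM for LTF. Its rho with S100A9 was 0.41, below the 0.51 of CTSS and the 0.59 of LYZ. Which cells gave these transcripts was not tested. MMP9, made by both osteoclasts and neutrophils, had -0.09 ± 0.20 and did not pass the test.

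Among acute-phase proteins 3 of 11 genes in the table passed the filter, and 2 of the 3 rose, against 22.3% of all genes. The complement component C3 rose by 1.07 ± 0.14 per SD and SERPINA1, which inhibits neutrophil elastase, by 1.03 ± 0.09, while ceruloplasmin, CP, had 0.29 ± 0.16 (adjusted p = 0.142, limma-voom). CRP, SERPINA3 and HAMP were among the 8 below the filter. Of the cytokines and signalling genes of the acute phase and of neutrophil recruitment, 8 of 10 tested rose, with a median slope of 0.36, where 22.3% of all genes rose. CXCL8 rose by 0.84 ± 0.15, IL6R by 0.69 ± 0.04, OSM, a cytokine of the IL6 family, by 0.56 ± 0.12 and NFKBIZ by 0.43 ± 0.08. IL6, IL1A, IL1B, TNF, CSF2 and IL17A were below the filter.

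Other S100 genes rose in a share nearer to that of all genes, 22.3%. Of 9 tested, 3 rose, S100P with 0.96 ± 0.08, S100A16 with 0.45 ± 0.09 and S100A4 with 0.21 ± 0.09, 0 fell, and the median slope was 0.05. S100A6, which lies in the same stretch of chromosome 7 at chr7:43491387-43492538, had 0.14 ± 0.07 and did not pass the test. Between the trials 0 genes of these 6 lists passed the test.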

How the data were processed

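RNA of 186 frozen canine tumors was sequenced from stranded mRNA libraries. Per the study's methods, the authors trimmed reads with Cutadapt, mapped them with STAR 2.7.0f to GSD_1.0 and quantified genes with RSEM 1.3.1. The authors deposited expected counts per gene without normalization. The strand setting of the counting is not given in the sources used here. Of 198 columns, 12 matched no sample and were not used. Counts were rounded, and 3.07% of values were not whole.

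In R 4.3.3, low genes were removed by filterByExpr of edgeR 4.0.16 with a min.count of 10, a min.prop of 0.5 and a large.n of 5. Library sizes were scaled by TMM, and voom from limma 3.58.1 gave the main tests. The GS-1 score used quantile normalized log2(CPM + 2), scaled to 1 SD, with trial as a covariate. Alternatives used edgeR's quasi-likelihood test and DESeq2 1.42.0. On simulated data with 200 changed genes of 13422, limma recovered 200 for the trial contrast at 2-fold. It also recovered 200 for the score at a slope of 0.5. In the real data the trial contrast had an SE from 0.21 for MPO to 0.51 for SAA1 among the 6 genes. Recovery of changes in these 6 was not tested. Correlations used Python 3.11.15 and scipy 1.17.1, with two-sided permutation tests of 100000 resamples and Benjamini-Hochberg adjustment over the pairs, genes or list pairs. Markers needed 10 counts in 19 libraries. Dogs are numbered within a trial in order of listing. The 6 genes and all lists were chosen with earlier results of these data known. Named are the 6 genes, up to 4 genes per list with the largest slope among those past the threshold, and the 5 genes with a symbol nearest to each in rank. ELANE, CTSG, LTF, CAMP, AHSP, ALAS2, the neighbors on the chromosomes, MMP9, CP and S100A6 were named after their values were seen. Results for some genes that these rules name are not reported here.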

Additional observations from a re-analysis of the deposited data

How the results depend on the processing

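The number of the 6 genes called remained 0 for the trials and for the difference of slopes under all alternatives run, and was 4 or 5 for the GS-1 score. No paired analysis was possible because the dogs of the trials are different animals and their labels share no replicate number. By Spearman's rho 6 to 8 of 15 pairs passed the test, against 7 as reported. By Pearson's r 11 passed, with 8 at a pseudocount of 0.1, 6 within COTC022, 7 within the low-line libraries and 6 within titles spelled Tumor. Of the 54 pairs with marker lists 37 passed by r, and 24 within the low-line libraries. Medians of the 6 genes moved by less than the SD between dogs. That SD is a wide limit where a few tumors are very high, so this does not show the medians to be stable.

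Directions turned only for results that had not passed the test, except rho of SAA1 with S100A9, with adipocytes and with neutrophils, and r of MPO with macrophages, which was -0.16 over all dogs (adjusted p = 0.0388, permutation test) and 0.0059 within the low-line libraries. The log2 difference between trials became -0.19 for SAA1, 0.60 for S100A9, 0.75 for S100A12 and 0.38 for CSF3R with edgeR. With DESeq2 it was -0.20 for SAA1, 0.26 for S100A9 and 0.076 for S100A12. Within the low-line libraries it was 0.71 for S100A9, 0.62 for S100A12 and 0.57 for CSF3R, and within titles spelled Tumor 0.40, 0.41 and 0.34. It was -0.037 for S100A8 within the other libraries and 0.035 for S100A9 with the library total as a covariate. The difference of slopes was 0.26 for CSF3R with edgeR and -0.0012 for S100A12 between library names.

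Spearman's rho of SAA1 within the low-line libraries was -0.13 with S100A8, -0.0010 with S100A9, -0.040 with S100A12, -0.097 with CSF3R, -0.062 with neutrophils, -0.052 with adipocytes and -0.076 with endothelial cells. Within titles spelled Tumor it was -0.13, -0.037, -0.077 and -0.048 with S100A8, S100A9, S100A12 and CSF3R. Within COTC022 it was -0.026 with S100A8 and 0.089 with MPO. Spearman's rho of SAA1 with MPO was 0.027 within the other libraries and 0.021 within titles spelled tumor. For CSF3R with MPO, rho was 0.013 within the other libraries, 0.0028 within titles spelled Tumor and 0.0062 within titles spelled tumor. With marker lists, rho became 0.015 for CSF3R and osteoclasts and 0.0099 for MPO and neutrophils on CPM from library totals. Within the other libraries it was -0.024 for S100A8 and -0.010 for S100A12 with endothelial cells. Within the low-line libraries it was -0.025 for S100A12 with osteoclasts, 0.0071 for CSF3R with osteoclasts, -0.048 for MPO with B cells and plasma cells and 0.087 for MPO with osteoclasts. The cause of these changes was not tested.

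Alternatives added after the values were seen were the sum of SAA1 and LOC119877366, the fits without dog 32 of COTC022 or dog 36 of COTC021, the T cell list without CD4 and the contrast of library names. Without dog 32, 5 genes were called for the score and 7 pairs by rho. At a median of 25 to 57 counts for the 6 genes, depth limits what can be said of dogs under 10 counts.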
